A study of Mus musculus with 20 samples.

Results

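Integrins are receptors made of an alpha and a beta subunit that tie a cell to the extracellular matrix, and the pairing of the subunits sets which matrix protein is bound. The genes described here are the 10 subunits Itga2, Itga3, Itga5, Itga6, Itgav, Itgb1, Itgb4, Itgb5, Itgb6 and Itgb8, chosen by name as those typical of epithelial cells. Of these, 9 have a row in all 3 deposited expression tables, out of 16978 named genes with a row in at least 1 table, and Itgb8 was not analysed here. They were measured in MycCaP-Bo tumor cells, a bone-selected line derived from HiMyc mouse prostate tumor cells of FVB background and labeled with iRFP and luciferase.

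Tumor cells were sorted as CD45- iRFP+ from bone metastases of male FVB/N mice that were 4 to 6 weeks old, and the RNA of 3 pooled mice made up each of the 20 libraries. Naive tumors received no drug, and the paper lists them as vehicle in its text and as not treated in a figure legend. Resist tumors received enzalutamide, an antiandrogen, at 30 mg/kg for 18 days, and Resist-Mac tumors received in addition clodronate liposomes, which deplete macrophages, at 1 mg per mouse in the last 4 days. Naive-Mac tumors received clodronate liposomes at 1 mg per mouse and no enzalutamide. Each group held 5 libraries. All 4 groups share the same line, host strain and site, so they model 1 line in 1 strain, and the pools, not single mice, are the replicates.

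Naive and Resist libraries form 1 batch and stand in 1 table, whereas Resist-Mac and Naive-Mac libraries each form a batch with a table of its own. Resist vs. naive is therefore the only comparison made within a batch, and in the other comparisons batch and group cannot be told apart. From the smallest steps in the deposited values, each library was estimated to hold 9.8 to 12.9 M (mega) fragments. Replicates correlated at r from 0.9755 to 0.996 within groups, across genes, and 0 pairs were identical. The summed FPKM (fragments scaled to transcript length and to library size) of a library rose from 481161 to 530961 in naive and Resist libraries to 617494 to 761510 in Resist-Mac and 882276 to 1040436 in Naive-Mac libraries, so levels set across tables are not on an equal footing.

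Of 12 markers of prostate epithelium, Krt8, Cldn3, Cldn4 and Foxa1 were well expressed, with Cldn3 at a mean of 363 FPKM in naive tumors. Cdh1 did not exceed 0.18 FPKM and Krt18 did not exceed 0.23 FPKM in any library, so the epithelial label of the line rests on part of its markers. Macrophage markers summed to at most 9.26 FPKM in every library. The 10 neutrophil markers summed to 61.53 to 603.43 FPKM in Resist, 176.15 to 1270.02 in naive, 406.06 to 8775.17 in Resist-Mac and 58.8 to 6158.92 in Naive-Mac libraries. In such bulk samples, more cells of a type and more RNA per cell cannot be told apart.

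As background, alpha 5 pairs with beta 1 only and forms the classical fibronectin receptor, which reads the RGD motif. Alpha v pairs with beta 1, beta 3, beta 5, beta 6 or beta 8 and also reads RGD. It binds vitronectin, fibronectin or the latent form of TGF-beta according to the partner. Alpha 3 and alpha 6 bind laminins with beta 1, alpha 6 also pairs with beta 4 in the hemidesmosomes of normal basal epithelium, and alpha 2 with beta 1 binds collagen. Beta 1 is shared by many alpha subunits, which compete for it.

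Promoter windows were taken from RefSeq (build GRCm38.p6), each from 250 bases before to 50 bases after the gene's start, and 8 of the 10 genes had an entry. Shown are Itga5 and Itga3, which rose together in Resist tumors, and Itgb1, their shared partner, which did not pass the test. Capitals mark the SMAD-binding element CAGAC and the GC box GGGCGG on either strand, which appear as GTCTG and CCGCCC when they lie on the opposite strand.
Itga5, chr15:103366742-103367041, minus strand: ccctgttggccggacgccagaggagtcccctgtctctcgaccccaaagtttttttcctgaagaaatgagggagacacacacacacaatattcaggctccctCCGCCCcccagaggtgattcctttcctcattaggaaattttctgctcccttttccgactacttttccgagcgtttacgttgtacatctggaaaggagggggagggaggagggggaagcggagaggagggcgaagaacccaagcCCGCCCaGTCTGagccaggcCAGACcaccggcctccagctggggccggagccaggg
Itga3, chr11:95076665-95076964, minus strand: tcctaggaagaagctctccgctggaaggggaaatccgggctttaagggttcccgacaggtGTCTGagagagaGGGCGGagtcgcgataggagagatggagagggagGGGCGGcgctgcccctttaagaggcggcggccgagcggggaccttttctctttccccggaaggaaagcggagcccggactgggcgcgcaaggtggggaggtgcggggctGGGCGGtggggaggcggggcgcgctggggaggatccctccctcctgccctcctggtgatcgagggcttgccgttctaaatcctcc
Itgb1, chr8:128685404-128685703, plus strand: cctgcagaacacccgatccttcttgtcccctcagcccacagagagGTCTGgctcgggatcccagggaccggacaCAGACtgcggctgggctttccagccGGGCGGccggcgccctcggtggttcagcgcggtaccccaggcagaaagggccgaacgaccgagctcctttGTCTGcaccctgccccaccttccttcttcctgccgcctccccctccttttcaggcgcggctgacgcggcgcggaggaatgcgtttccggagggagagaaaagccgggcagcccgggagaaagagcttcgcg

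The Itga5 window holds 2 copies of CAGAC and 2 of GGGCGG, the Itga3 window shown 1 and 3, and the Itgb1 window 3 and 1. CAGAC occurred in 49.6% and GGGCGG in 35.7% of 32851 promoter windows of the same length, so neither motif sets these genes apart. The AP-1 site TGANTCA, present in 7.81% of the windows, was in none of the 3 windows shown. Itga3 has another window in the table, chr11:95069149-95069448, which is not shown and holds 0 copies of CAGAC, 1 of GGGCGG and 1 AP-1 site. These matches describe letters in a window, and binding was not measured here.

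In naive tumors the order of levels by median was Itgb1, Itgb5, Itga3, Itga6, Itgav, Itga5, Itgb6, Itga2 and Itgb4. Itgb5 at 100.61 to 114.67 FPKM overlapped Itga3 at 61.94 to 105.14 FPKM, and Itga3 overlapped Itga6 at 42.95 to 64.18 FPKM. The other steps down to Itgb6 were free of overlap between libraries. The laminin-binding alpha subunits were thus the most abundant alpha chains of the untreated tumor cells, and Itga5 stood at 6.97 to 9.37 FPKM, below Itgav at 14.60 to 16.90 FPKM.

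In Resist tumors Itga3 took the first place by median, at 174 FPKM, although its libraries overlapped those of Itgb1 and Itgb5. Itga6, Itga5 and Itgav, with medians of 29.05, 21.28 and 19.32 FPKM, overlapped their neighbors and could not be ranked. The same 3 genes overlapped in that order in Resist-Mac tumors, at medians of 19.48, 17.21 and 9.71 FPKM. In Naive-Mac tumors Itgb1, Itgb5 and Itga3 led with overlapping libraries, and Itgav at 1.41 to 4.55 FPKM, Itga5 at 0.80 to 7.66 FPKM and Itgb6 at 0.53 to 1.47 FPKM overlapped at the low end.

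**Figure D1:**
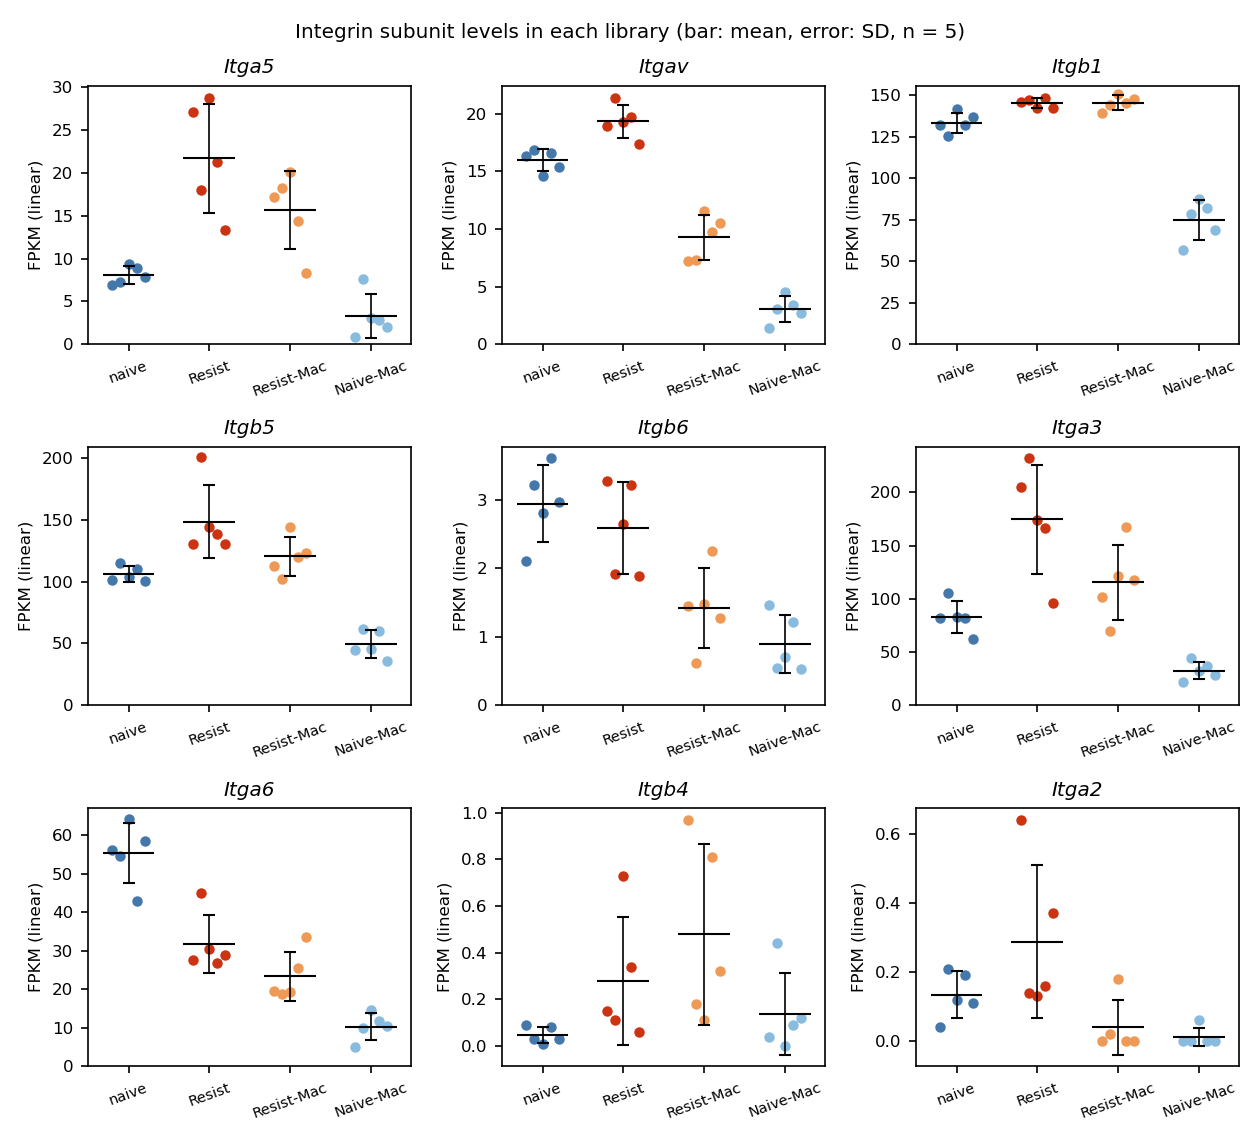
FPKM on a linear axis (y) in each library of the 4 groups (x) for the 9 measured integrin subunits, 1 panel per gene, with the mean as a bar and the SD as the error (n = 5). Itga5 and Itga3 sit higher in Resist than in naive tumors, Itga6 sits lower, Itgb1 is at 125.27 to 150.92 FPKM in 3 groups and at 56.59 to 87.32 FPKM in Naive-Mac, and Itgb4 and Itga2 stay below 1 FPKM.

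The first question was which subunits differed between enzalutamide-resistant and untreated tumors. Itga5 and Itga3 were higher in Resist than in naive tumors, Itga6 was lower, and Itgav, Itgb1, Itgb5 and Itgb6 did not pass. A gene was tested when it averaged at least 1 FPKM over the libraries compared, and it was called when its limma test on log2(FPKM + 1) reached the p threshold of 0.05 after Benjamini-Hochberg adjustment and its fold exceeded 1.5, or 0.585 in log2 units. This scale understates the change of low genes. Of the 7 subunits tested, 3 were called, 2 higher and 1 lower. Over the whole table of 10119 genes, 6.35% passed as called, with 5.25% higher and 1.11% lower. The median log2 change was 0.26 over the 7 subunits and 0.03 over all genes tested. Some markers moved in the same comparison. Hba-a1, a globin gene of erythroid cells, had a log2 change of 0.78 (limma adjusted p = 0.0245). Epithelial markers moved in both directions. Hoxb13 was called higher with a change of 1.05 (limma adjusted p = 6.74e-05). Cldn4 was called lower with a change of -0.98 (limma adjusted p = 0.0451). Cldn3 changed by -0.52 (limma adjusted p = 0.00637) and missed the fold threshold, and Krt8, Krt19 and Foxa1 were not called. Of 10 neutrophil markers 8 were tested, with a median of -0.95, and limma called 0, with 0 at an unadjusted p under 0.05, whereas 6 were lower by a NOISeq-type noise probability. The part of these markers in the changes of the subunits was not tested.

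Itga5, the alpha chain of the fibronectin receptor, measured 6.97, 7.28, 9.37, 8.96 and 7.91 FPKM in naive libraries and 27.15, 17.99, 28.75, 21.28 and 13.39 FPKM in Resist libraries. Every Resist library was above every naive library, and the lowest was Resist replicate 5. The means were 8.10 ± 1.04 (SD, n = 5) in naive and 21.7 ± 6.37 (SD, n = 5) in Resist tumors. The log2 change was 1.28 (SE 0.17, limma adjusted p = 0.000749), the largest rise among the 7 subunits. Resist replicate 5 also had the highest summed level of 13 osteoblast and stromal markers, at 34.09 FPKM against 10.87 to 16.45 FPKM in naive and 11.5 to 25.1 FPKM in the other Resist libraries. Without it the change of Itga5 was 1.43 and the same number of subunits, 3, was called.

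Itgb1, the only beta chain that alpha 5 uses, moved much less. It measured 131.85, 125.27, 141.62, 132.41 and 136.69 FPKM in naive and 146.28, 147.40, 142.46, 148.51 and 142.33 FPKM in Resist libraries. The groups did not overlap, yet the means of 134 ± 6.08 and 145 ± 2.85 FPKM (SD, n = 5) differed by only 0.12 in log2 units (SE 0.05, adjusted p = 0.108 by limma). The level of Itgb1 thus stood well above that of Itga5 throughout, at 16.7 ± 1.71 FPKM of Itgb1 per FPKM of Itga5 in naive and 7.23 ± 2.30 in Resist tumors (SD, n = 5).

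Itga3, the alpha chain of a laminin receptor, was the other subunit that rose. Its libraries stood at 82.04, 105.14, 83.09, 81.90 and 61.94 FPKM in naive and 204.91, 232.07, 174.35, 166.18 and 95.68 FPKM in Resist tumors. Resist replicate 5 was again the lowest and lay inside the naive range, so the groups overlapped. The log2 change was 1.03 (SE 0.21, limma adjusted p = 0.0056), and it was 1.23 without Resist replicate 5. In FPKM the mean gain of Itga3, from 82.8 ± 15.3 to 175 ± 51.3 (SD, n = 5), was far more than that of Itga5.

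Itga6, the other laminin-binding alpha chain, went the opposite way. It measured 56.28, 54.70, 64.18, 42.95 and 58.65 FPKM in naive and 27.56, 45.06, 30.49, 26.89 and 29.05 FPKM in Resist libraries. Resist replicate 2 reached into the naive range and the other 4 Resist libraries were all below it. The log2 change was -0.79 (SE 0.14, limma adjusted p = 0.00287). The balance of the 2 laminin-binding alpha chains thus shifted, from 1.53 ± 0.38 FPKM of Itga3 per FPKM of Itga6 in naive to 5.56 ± 1.52 in Resist tumors (SD, n = 5), and the ranges of this ratio, 1.06 to 1.92 and 3.29 to 7.43, did not overlap.

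The RGD-binding alpha v and its partners Itgb5 and Itgb6 were not called. Itgb3, another beta partner of alpha v outside the list, was called and is given below. Itgav stood at 16.31, 16.90, 14.60, 16.60 and 15.42 FPKM in naive and at 18.97, 21.41, 19.32, 19.68 and 17.38 FPKM in Resist libraries, with no overlap. Its log2 change of 0.26 (SE 0.07, limma adjusted p = 0.0221) passed the p threshold and missed the fold threshold. Itgb5, the beta chain of a vitronectin receptor, did the same with a change of 0.46 (SE 0.11, limma adjusted p = 0.0117), from 106 ± 6.11 to 148 ± 29.6 FPKM (SD, n = 5). Every Resist library of Itgb5 was above every naive library, at 129.97 to 200.38 against 100.61 to 114.67 FPKM. Itgb6, whose alpha v heterodimer activates latent TGF-beta, overlapped between groups at 2.11 to 3.61 and 1.88 to 3.27 FPKM, with a change of -0.15 (SE 0.15, limma adjusted p = 0.514).

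Itga2 and Itgb4 averaged below 1 FPKM and were not tested. Itga2, the collagen-binding alpha chain, ranged from 0.04 to 0.21 FPKM in naive and 0.13 to 0.64 FPKM in Resist libraries. Itgb4, the hemidesmosomal partner of alpha 6, ranged from 0.01 to 0.09 and from 0.06 to 0.73 FPKM. Both genes were near the floor of the assay in every group, with highest values of 0.18 and 0.97 FPKM in Resist-Mac and 0.06 and 0.44 FPKM in Naive-Mac libraries.

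The question of Itga5 against its partner and rivals was put to ratios within each library, in which a common scaling of the library cancels apart from the pseudocount. The log2 ratio of Itga5 to Itgb1 averaged -3.89 in naive and -2.74 in Resist tumors. It measured -4.06, -3.93, -3.78, -3.74 and -3.95 in naive and -2.39, -2.97, -2.27, -2.75 and -3.32 in Resist libraries, with no overlap. The difference was 1.16 (two-sided exact permutation test, p = 0.00794, the smallest that 5 against 5 libraries allow; 0.0278 after Benjamini-Hochberg adjustment over 28 ratio and share tests). Itga5 therefore rose relative to the beta chain it needs, although leaving out naive replicate 1, 2, 3 or 5 ended the call, with differences of 1.11 to 1.18 and adjusted p of 0.0556 to 0.0606 by the exact permutation test.

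Against its RGD-reading rival Itgav, Itga5 gained by 1.02, from a mean log2 ratio of -0.90 to 0.11, again without overlap (exact permutation test, adjusted p = 0.0278). Counted linearly, there were 2.00 ± 0.33 FPKM of Itgav per FPKM of Itga5 in naive and 0.957 ± 0.283 in Resist tumors (SD, n = 5). Against the laminin-binding Itga6 the difference was 2.07 (exact permutation test, adjusted p = 0.0278), with 6.93 ± 1.27 FPKM of Itga6 per FPKM of Itga5 in naive and 1.60 ± 0.69 in Resist tumors (SD, n = 5). Against the laminin-binding Itga3 the difference was 0.25 and the groups overlapped (exact permutation test, p = 0.302, adjusted p = 0.402). The 2 laminin-binding rivals thus compared unequally with Itga5: it outran Itga6, and its ratio to Itga3 did not differ beyond the spread of the libraries. Without naive replicate 1, 2 or 5 the ratios to Itgav and Itga6 kept differences of 0.96 to 1.02 and 2.02 to 2.04 and no longer passed.

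The log2 ratio of Itga5 to Itga2 was 1.11 higher in Resist tumors (exact permutation test, adjusted p = 0.0278), but with Itga2 near 0 this value rests on the pseudocount, and it was 0.75 with a pseudocount of 0.1 (exact permutation test, adjusted p = 0.222). The log2 ratio of Itga6 to its low partner Itgb4 was 1.06 lower, a difference of -1.06 (exact permutation test, adjusted p = 0.0444). With a pseudocount of 0.1 it was -1.93 (exact permutation test, adjusted p = 0.0444), so its size rests on the pseudocount as well.

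**Figure D2:**
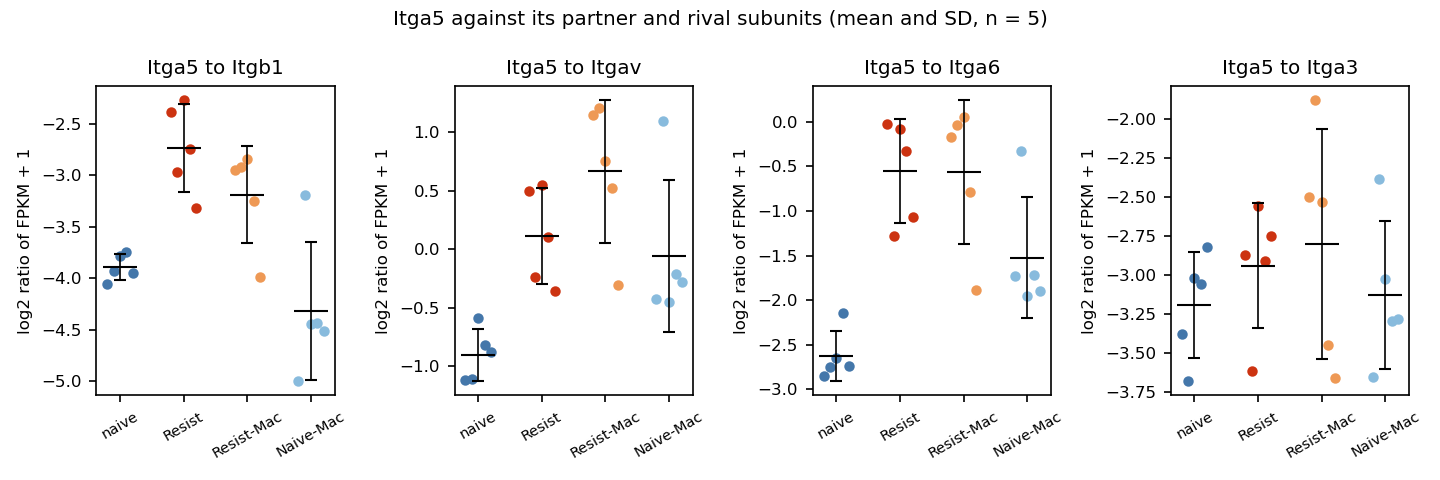
The log2 ratio of FPKM + 1 of Itga5 to Itgb1, Itgav, Itga6 and Itga3 (y) in each library of the 4 groups (x), with mean and SD (n = 5) and a separate axis range per panel. Resist libraries lie above all naive libraries for Itgb1, Itgav and Itga6, with mean differences of 1.16, 1.02 and 2.07, and overlap them for Itga3.

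As a share of the summed FPKM of the 5 alpha chains, Itga5 made up 5.03% ± 0.86 in naive and 8.89% ± 2.08 in Resist tumors (SD, n = 5). The difference of 3.85 percentage points passed (exact permutation test, p = 0.0159, adjusted p = 0.0444), although the groups overlapped at 3.95 to 5.95% and 5.68 to 11.4%. The call was lost without naive replicate 1, 2, 3 or 5, at 3.58 to 3.97 points (exact permutation test, adjusted p = 0.0606), and with quantile normalization, at 3.41 points (exact permutation test, adjusted p = 0.0684). Itga3 went from 50.7% ± 5.44 to 69.6% ± 4.94 and Itga6 from 34.2% ± 5.15 to 13.3% ± 3.39 (SD, n = 5). Itga3 thus held most of the alpha chain transcripts in Resist tumors, and Itga5 remained a minor chain. Itgav held 9.90% ± 1.05 in naive and 8.15% ± 1.81 in Resist tumors, and Itga2 at most 0.237% (SD, n = 5).

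**Figure D3:**
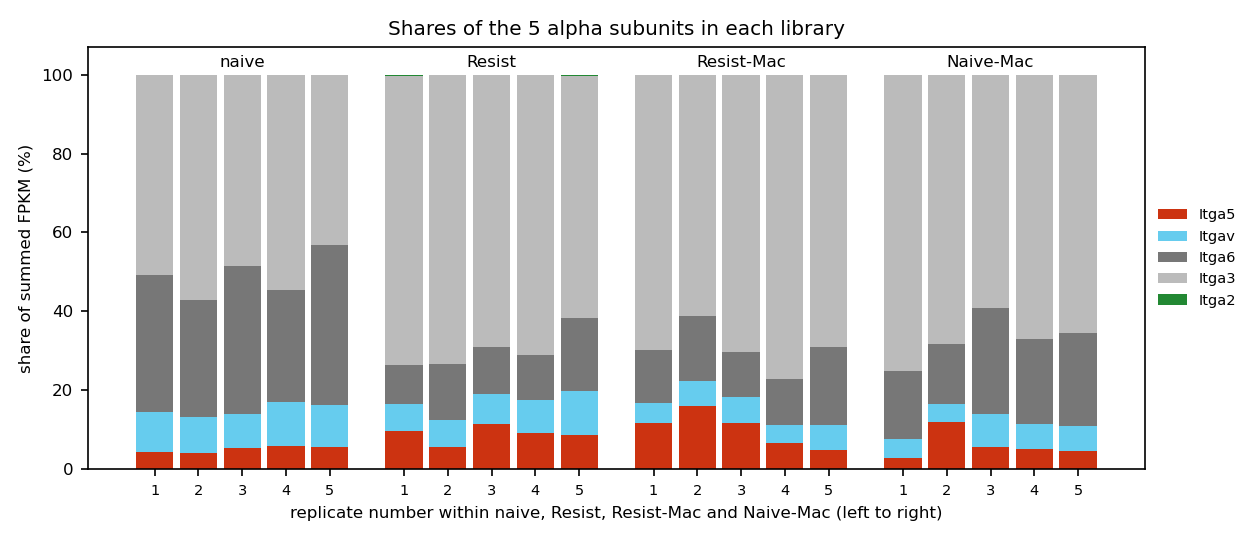
Share in percent (y) of the summed FPKM of Itga5, Itgav, Itga6, Itga3 and Itga2 in each of the 20 libraries (x, replicate number within group). Itga3 averages 50.7% in naive and 67.0 to 69.6% in the other groups, Itga6 averages 34.2% in naive and 13.3 to 20.9% elsewhere, and Itga2 is barely visible.

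Genes that work with these subunits were read in the same comparison. Of 17 other integrin subunits, 5 were tested and 1 was called, Itgb3, the beta chain of another alpha v heterodimer, at 0.656 ± 0.285 FPKM in naive and 1.92 ± 0.753 FPKM in Resist tumors (SD, n = 5; log2 change 0.80, SE 0.19, limma adjusted p = 0.012, not called by a NOISeq-type noise probability). Itgam and Itgb2, the leukocyte integrin chains, were not called, and their highest values were 10.97 and 22.36 FPKM in Resist-Mac libraries. Of 25 ligand genes, 18 were tested, with 5 called higher and 1 lower and a median log2 change of 0.24.

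The ligands that rose included parts of laminin, the matrix protein that alpha 3 reads: Lama5 went from 35.2 to 58.9 FPKM (log2 change 0.71, SE 0.14, limma adjusted p = 0.00585) and Lamb2 from 41.1 to 63.7 FPKM (0.61, SE 0.10, limma adjusted p = 0.00252). Npnt, or nephronectin, an RGD ligand, went from 2.52 to 6.59 FPKM (1.09, SE 0.13, limma adjusted p = 0.000386). Genes of the latent TGF-beta complex moved in both directions. Ltbp1 rose by 1.21 (SE 0.14, limma adjusted p = 0.000298) and Tgfb3 by 1.02 (SE 0.16, limma adjusted p = 0.0016), while the log2 change of Tgfb2 was -1.21 (SE 0.19, limma adjusted p = 0.00148), from 81.1 to 36.1 FPKM. Fn1, the fibronectin gene, missed the fold threshold with a log2 change of 0.52 (limma adjusted p = 0.0103).

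Of 20 integrin activators and adhesion adaptors, 18 were tested and 2 rose. These were the actin-binding linkers Actn1, from 62.9 to 108 FPKM (log2 change 0.75, SE 0.14, limma adjusted p = 0.00459), and Flna, from 90.7 to 146 FPKM (0.64, SE 0.16, limma adjusted p = 0.0157). Of 10 hemidesmosome and tetraspanin partners, 7 were tested and 0 were called by limma or by a NOISeq-type noise probability, with 1 at an unadjusted limma p under 0.05. The median log2 change was 0.24 over the adaptors and 0.04 over these partners, against 0.03 over all genes tested.

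Over the 10 naive and Resist libraries, the genes whose log2(FPKM + 1) followed Itga5 most closely were a Vav2 non-coding transcript, Fut8, Lancl1, Pdcd4 and Fbxo2, with Pearson r of 0.990, 0.984, 0.981, 0.978 and 0.976 among the 10119 genes tested. The values are a description, because the points fall into the 2 groups that Itga5 separates. Fut8, the core fucosyltransferase, went from 4.35 to 6.53 FPKM, and Fbxo2, a ubiquitin ligase subunit that recognizes glycoproteins, from 1.69 to 6.94 FPKM. Among the subunits, r with Itga5 was 0.86 for Itga3, 0.80 for Itgb1, 0.79 for Itgav, 0.70 for Itgb5, -0.02 for Itgb6 and -0.83 for Itga6.

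The second question was which subunits were lower when macrophages had been depleted from resistant tumors. When Resist was set against Resist-Mac, 2 of the 7 subunits tested were called higher in Resist and 0 lower, against 9.71% of 10049 genes called higher. The called genes were Itgav and Itgb6, and Itga5 and Itga3 did not pass. Itgav measured 7.23, 7.30, 11.56, 9.71 and 10.56 FPKM in Resist-Mac libraries, all of them below the Resist range of 17.38 to 21.41 FPKM. The log2 difference was 1.00 (SE 0.13, limma adjusted p = 0.000123). Itgb6 stood at 0.61 to 2.25 FPKM in Resist-Mac, overlapping Resist, with a difference of 0.59 (SE 0.20, limma adjusted p = 0.0301). That call was lost when any of Resist replicates 1, 3 and 4 or Resist-Mac replicates 2 and 5 was left out, where the difference was 0.45 to 0.57 with adjusted p from 0.0507 to 0.0728. By the NOISeq-type noise probability, with its threshold of 0.8, Itgav (0.819) and Itga3 (0.822) were called and Itgb6 (0.353) was not.

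Itga5 measured 17.21, 18.24, 20.15, 14.40 and 8.38 FPKM in Resist-Mac libraries. These overlapped the Resist libraries and, except for replicate 5, lay above every naive library. The log2 difference between Resist and Resist-Mac was 0.45 (SE 0.24, limma adjusted p = 0.146). Itga3 measured 101.96, 69.65, 121.17, 167.28 and 117.65 FPKM, with a difference of 0.59 (SE 0.25, limma adjusted p = 0.0728), and it was called without Resist replicate 5 (0.79, adjusted p = 0.0112) or Resist-Mac replicate 4 (0.73, adjusted p = 0.0279).

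Itgb1 averaged 146 ± 4.33 FPKM in Resist-Mac (SD, n = 5), close to the 145 FPKM of Resist tumors, with a difference of -0.0018 (SE 0.07, limma adjusted p = 0.985). Itga6 at 18.68 to 33.60 FPKM and Itgb5 at 101.69 to 143.87 FPKM in Resist-Mac overlapped Resist, with differences of 0.44 (SE 0.18, limma adjusted p = 0.063) and 0.29 (SE 0.13, limma adjusted p = 0.0894). None of the 7 ratio and share tests of this comparison passed, at adjusted p from 0.143 to 0.984 (exact permutation tests). For Itga5 to Itgb1 the difference was 0.45 (exact permutation test, adjusted p = 0.222), and for Itga5 to Itgav it was -0.55 (exact permutation test, adjusted p = 0.21). The Itga5 share was 8.89% in Resist and 10.2% ± 4.45 in Resist-Mac tumors (SD, n = 5).

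Both neutrophil markers and transcript length moved with this comparison. Of 10 neutrophil markers, 7 were called lower in Resist, and without Resist-Mac replicates 1 and 5, the libraries of highest neutrophil level, 1 subunit was called, Itgav at 0.97, while Itgb6 stood at 0.59 (limma adjusted p = 0.0792) and Itga5 at 0.25 (adjusted p = 0.41). The log2 difference of a gene rose with its transcript length at a Spearman rho of 0.64 across genes, which are not independent replicates, against 0.15 in Resist vs. naive. After a correction for length and GC content in each library, Itgav was the 1 subunit called (0.63, limma adjusted p = 0.0016), against 4.01% of genes called higher, and Itgb6 stood at 0.44 (adjusted p = 0.0929). The part of either in the uncorrected differences was not tested beyond these values. In Resist vs. naive the same correction left Itga5 at 1.13, Itga3 at 0.87 and Itga6 at -0.88, all 3 called.

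Of 18 ligand genes tested in Resist vs. Resist-Mac, 8 were called higher in Resist and 0 lower, against 9.71% of all genes called higher, at a median of 0.63 against -0.02 over all genes. After the correction for length and GC content 2 were called higher and 0 lower, at a median of 0.33, where 4.01% of all genes were called higher. Fn1 was among the 8 called without that correction, with an uncorrected difference of 1.25 (SE 0.14, limma adjusted p = 5.15e-05). Of 18 adaptors, 5 were called higher and 1 lower, at a median of 0.33, where 976 of 10049 genes were called higher and 1205 lower. After that correction 1 adaptor was called higher and 0 lower, at a median of 0.16, against the same 4.01% of all genes called higher.

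The third comparison set naive against Naive-Mac tumors, neither of which received enzalutamide. All 7 subunits tested were called higher in naive tumors, where 37.5% of the 9837 genes tested were called higher too. The median difference was 1.27 over the subunits and 0.23 over all genes. Of the called genes, 3691 were higher and 2177 lower, and with median-ratio scaling, which moved the median of all genes from 0.23 to -0.05, the split was 2881 higher and 3063 lower and 6 subunits were called. Erythroid markers summed to 53.95 to 107.26 FPKM in naive and 214.34 to 954.06 FPKM in Naive-Mac libraries, and Hba-a1 differed by -2.13 (limma adjusted p = 9.21e-05). Osteoblast and stromal markers summed to 10.87 to 16.45 FPKM in naive and 2.86 to 3.93 FPKM in Naive-Mac libraries. Runx2 was the largest part of this sum, at a mean of 7.83 FPKM in naive and 1.28 FPKM in Naive-Mac tumors. Dcn, a low member of the list, went the other way, from a mean of 0.158 to 0.634 FPKM. Neither the erythroid nor the stromal sum overlapped between the groups, and their part in the differences of the subunits was not tested.

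Itga6 showed the largest difference of the 7, with 4.95, 9.85, 14.70, 11.66 and 10.48 FPKM in Naive-Mac libraries, all far below the naive range of 42.95 to 64.18 FPKM. The log2 difference was 2.37 (SE 0.21, limma adjusted p = 2.36e-07). Itgav followed with 1.41, 3.05, 4.55, 3.44 and 2.73 FPKM in Naive-Mac libraries and a difference of 2.12 (SE 0.18, limma adjusted p = 1.52e-07). Itgb1, at similar levels in the other groups, stood at 56.59, 78.24, 87.32, 82.43 and 69.06 FPKM, a difference of 0.84 (SE 0.11, limma adjusted p = 7.19e-06).

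Itga5 measured 0.80, 7.66, 3.06, 2.84 and 2.07 FPKM in Naive-Mac libraries. Replicate 2 was the highest and the only one inside the naive range, and it also had the lowest neutrophil marker sum of its group, 58.8 FPKM. The other libraries did not keep that order. Replicate 5 had the next lowest sum, 760.68 FPKM, with Itga5 at 2.07 FPKM, and replicate 3 the highest, 6158.92 FPKM, with Itga5 at 3.06 FPKM. A link between the marker sum and Itga5 was not tested. The log2 difference of Itga5 between the groups was 1.27 (SE 0.31, limma adjusted p = 0.00193). Itga3, Itgb5 and Itgb6 differed by 1.33, 1.11 and 1.07, each with an SE of at most 0.17. Libraries of Itga3, Itgb5 and Itgb6 did not overlap between the groups. All 7 calls were also made without Naive-Mac replicates 1 and 3, the libraries of its highest neutrophil sums.

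Here length moved with the differences most strongly, at a Spearman rho of 0.71 across genes. Genes with transcripts over 3 kb had a median difference of 0.81 and those under 1.5 kb one of -1.05, and the transcripts of the 7 subunits tested span 3282 to 7054 bases. When all genes were sorted by length into 10 bins, each subunit could be set against the median of its bin. Itga6 stood at 2.37 against 0.55, Itgb5 at 1.11 against 0.21 and Itgb1 at 0.84 against 0.42, whereas Itgav stood at 2.12 against 1.76. Itga3 at 1.33, Itga5 at 1.27 and Itgb6 at 1.07 shared a bin with a median of 0.85.

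After the correction for length and GC content, 3 subunits remained called higher, against 18.9% of genes. These were Itga6 (1.63), Itgav (0.86) and Itgb5 (0.60). Itga5 fell to 0.21 (limma adjusted p = 0.47) and Itga3 to 0.09 (adjusted p = 0.515), so their calls between naive and Naive-Mac tumors rest on the uncorrected values. Itgb1 stood at 0.51 and Itgb6 at 0.35 (adjusted p = 0.145). Part of the exons of Itgav, 634 of 10744 bases, overlap an opposite-strand gene, Gm13684, and the sources used here do not give whether strand was kept in counting.

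**Figure D4:**
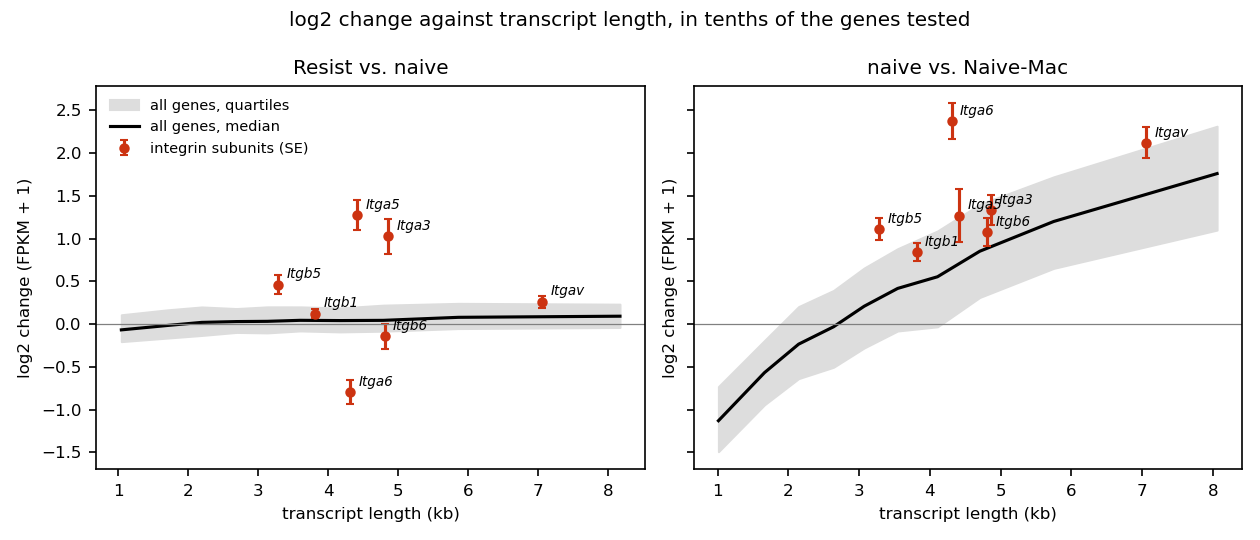
The log2 change of log2(FPKM + 1) (y) against transcript length in kb (x) for Resist vs. naive and naive vs. Naive-Mac, with the median (line) and quartiles (band) of all genes in 10 bins by length and the 7 integrin subunits as points with SE. In Resist vs. naive the median of all genes stays near 0, Itgb1 lies inside the band and Itga5, Itga3 and Itga6 lie farthest from it, while in naive vs. Naive-Mac the median climbs with length and Itga6 and Itgb5 lie above the band.

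Ratios within libraries gave a mixed picture of Itga5 in naive vs. Naive-Mac tumors. Itga5 to Itgav was 0.85 lower in naive, a difference of -0.85, and Itga5 to Itga6 differed by -1.10 (exact permutation tests, adjusted p = 0.0278 for both). Naive-Mac replicate 2 stood apart in both ratios. Itga5 to Itgav no longer passed after the length and GC correction, and Itga5 to Itga6 no longer passed with a pseudocount of 0.1. For Itga5 to Itgb1 the difference was 0.43 (exact permutation test, adjusted p = 0.344), and without Naive-Mac replicate 2 it was 0.71 (adjusted p = 0.0278). For Itga5 to Itga3 it was -0.06, and the Itga5 share was 5.03% in naive and 6.02% ± 3.43 in Naive-Mac tumors (SD, n = 5).

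The fourth comparison set Resist-Mac against Naive-Mac tumors, which shared macrophage depletion and differed in enzalutamide. Of the 7 subunits tested, 6 were called higher in Resist-Mac, against 37.2% of the 9760 genes tested. Itga5 led with a difference of 2.10 (SE 0.35, limma adjusted p = 0.000168), and all 5 Resist-Mac libraries, at 8.38 to 20.15 FPKM, were above the Naive-Mac libraries, at 0.80 to 7.66 FPKM. Itga3 followed with 1.77 (SE 0.22, limma adjusted p = 1.69e-05), and neither gene overlapped between these groups. Itgav differed by 1.38, Itgb5 by 1.28, Itga6 by 1.14 and Itgb1 by 0.97, and Itgb6 did not pass at 0.34 (SE 0.21, limma adjusted p = 0.167).

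Itga5 and Itga3 thus showed the 2 largest differences of the 7 subunits both in Resist vs. naive and in Resist-Mac vs. Naive-Mac, while Itga6 was lower in Resist than in naive and higher in Resist-Mac than in Naive-Mac tumors. After length and GC correction 4 subunits remained called, against 12.7% of genes, namely Itga5 (1.12, limma adjusted p = 0.0167), Itga3 (0.67), Itgb5 (0.66) and Itgb1 (0.59). Itga6 then stood at 0.47, Itgav at 0.41 and Itgb6 at -0.29. The split of all called genes was 3631 higher and 878 lower as deposited, and 2187 higher and 2291 lower with median-ratio scaling, where the median of all genes moved from 0.34 to -0.04. For Itga5 to Itgb1 the log2 ratio was 1.13 higher in Resist-Mac (exact permutation test, p = 0.0238, adjusted p = 0.0606), and 1.41 without Naive-Mac replicate 2 (adjusted p = 0.0342).

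**Figure D5:**
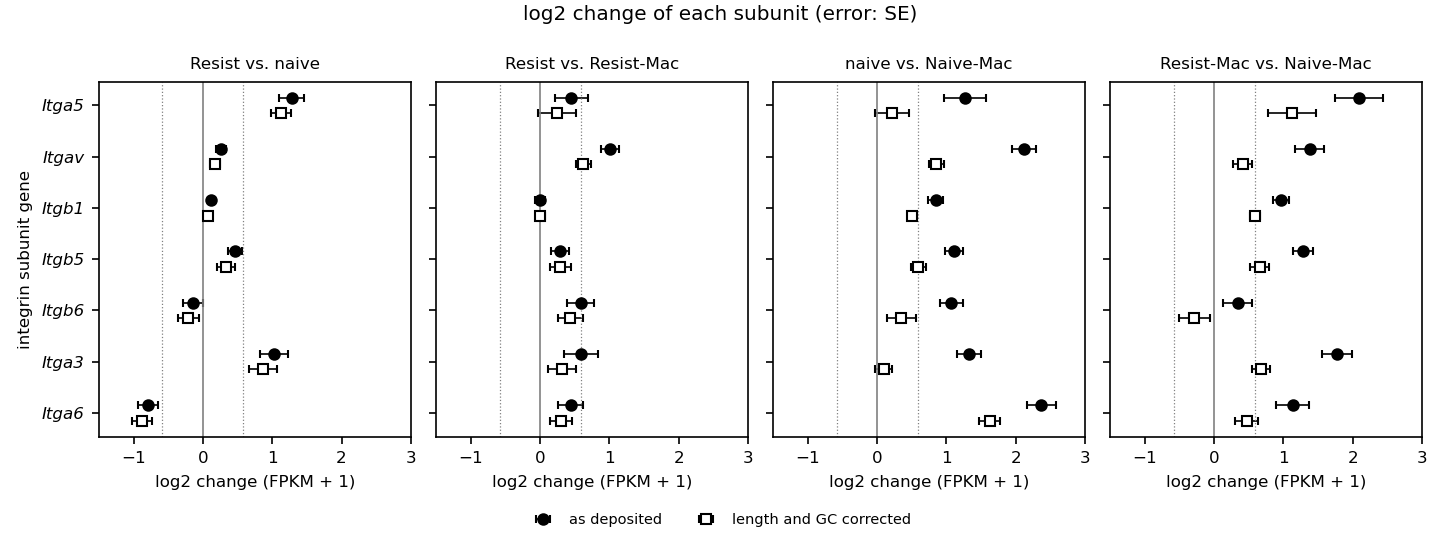
The log2 change with SE (x) of the 7 tested integrin subunits (y) in the 4 comparisons, as deposited (filled circles) and after length and GC correction (open squares), with dotted lines at a fold change of 1.5. The corrected values stay close in Resist vs. naive (Itga5 1.28 and 1.13) and shrink in naive vs. Naive-Mac (Itga5 1.27 and 0.21).

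The last test asked whether the change with enzalutamide itself differed with macrophage depletion, as the Resist minus naive change less the Resist-Mac minus Naive-Mac change. Of the 7 subunits, 4 were called lower, against 32.5% of 9876 genes. These were Itga6 (-1.93, SE 0.29, limma adjusted p = 1.56e-05), Itgav (-1.12), Itgb1 (-0.85) and Itgb5 (-0.82). Itga5 had a difference of -0.82 with a wider error (SE 0.42, limma adjusted p = 0.107), and it was called without Resist-Mac replicate 5 (-1.01, adjusted p = 0.0431) or Naive-Mac replicate 2 (-1.12, adjusted p = 0.0101). Itga3 stood at -0.75 (SE 0.32, limma adjusted p = 0.0587), and it was called without naive replicate 5, Resist replicate 1 or 2, Resist-Mac replicate 2 or Naive-Mac replicate 2, at -0.91 to -0.82 with adjusted p from 0.0152 to 0.0487. Itgb6 at -0.49 (limma adjusted p = 0.123) was called without Resist-Mac replicate 2 (-0.62, adjusted p = 0.0333).

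After length and GC correction Itga6 was the 1 subunit called, at -1.35, against 12.1% of genes, and Itga5 stood at -0.0049 and Itga3 at 0.18. All genes split into 801 higher and 3214 lower as deposited and 1947 higher and 2121 lower with median-ratio scaling. This test draws on all 3 tables, so the batches enter it in full.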

How the data were processed

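The authors sorted tumor cells from bone metastases, pooled RNA of 3 mice per library and sequenced it on a BGISEQ-500 with paired ends. Bowtie2 and the build mm9 are named in the submitters' processing notes, and the quantification settings are not given in the sources used here. The authors deposited FPKM per gene in 3 tables: that of naive and Resist tumors holds log2 values of FPKM + 1, since turning them back gave numbers with 2 decimals for 100% of values, and the other 2 hold linear FPKM. The authors' 752 BGI_novel genes were removed. Rows were named by Entrez identifier with a mouse RefSeq table.

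Values were tested with limma 3.58.1 (R 4.3.3) on log2(FPKM + 1), with a trend in the prior variance, over genes averaging at least 1 FPKM in the groups compared, with Benjamini-Hochberg adjustment over all genes tested. These tests and the levels set across tables join tables that were normalized separately. Ratios and shares were compared by two-sided exact permutation tests, 28 in all. The correction for length and GC content used, per library, a spline of 4 degrees of freedom. Fragments per library were estimated from steps in low FPKM values, so depth limits mainly Itga2 and Itgb4. Column names of Resist-Mac replicates 2 and 3, Resist-Mac replicates 4 and 5, and Naive-Mac replicates 1 and 4 share a code whose meaning is not given in the sources used here, so p-values measure only the spread between libraries, which may be partly technical. The genes named were all members, the called genes of the fixed lists in Resist vs. naive (at most 6 per list), and the 5 genes most like Itga5. The members and lists were chosen with earlier results of these data known. Alternatives were other pseudocounts, filters, scalings and variance priors, a NOISeq-type probability over 0.8, the replicate block, all groups in a single fit, and leaving out each library. Leaving out libraries by their marker sums and counting the gene lists after the length and GC correction were added after seeing the data. The scripts were tested on simulated data. Other tools were matplotlib 3.10.9, pandas 2.3.3, numpy 2.4.6 and Python 3.11.15. The result of 1 marker gene is not reported here.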

Additional observations from a re-analysis of the deposited data

Results flagged for a closer look

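Levels and ratios of the subunits were checked within each group for a library far from the other 4, and 7 of 64 groups had one, where chance marks about 1 in 20. Itga6 stood at 45.06 FPKM in Resist replicate 2, against 26.89 to 30.49 FPKM in the other Resist libraries. In the same library Itgb5 stood at 200.38 FPKM, against 129.97 to 143.77 FPKM. Itga2, near 0 elsewhere, reached 0.18 FPKM in Resist-Mac replicate 3 and 0.06 FPKM in Naive-Mac replicate 3.

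The log2 ratio of Itga5 to Itga6 was -2.14 in naive replicate 4, against -2.85 to -2.65 in the other naive libraries. In Naive-Mac replicate 2 this ratio was -0.33, against -1.95 to -1.72, and the log2 ratio of Itga5 to Itgav was 1.10, against -0.45 to -0.21.

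The change with enzalutamide differed with macrophage depletion, by the limma test of the difference itself, for Itga6 (-1.93), Itgav (-1.12), Itgb1 (-0.85) and Itgb5 (-0.82), in log2 units. Of all 9876 genes tested, 32.5% were called lower too. With median-ratio scaling 2 subunits were called. After the length and GC correction 1 was called, Itga6, against 12.1% of genes. The Resist-Mac and Naive-Mac libraries of this test come from separate batches, so batch and group cannot be told apart in it.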

How the results depend on the processing

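In Resist vs. naive the 3 calls (Itga5, Itga3 and Itga6) held in number under every alternative run. Subunits called in Resist vs. Resist-Mac numbered 1 in place of 2 with a filter at 5 FPKM, with the length and GC correction and without the 2 Resist-Mac libraries of highest neutrophil markers, 3 with quantile normalization and with all 4 groups in a single fit, and 1 to 3 when a library was left out. In naive vs. Naive-Mac they numbered 3 in place of 7 with the length and GC correction, and in the change of the changes 2 in place of 4 with median-ratio scaling, 3 with quantile normalization, 1 with the length and GC correction and 4 to 6 when a library was left out. Genes called by the NOISeq-type probability against limma numbered 360 and 643 for Resist vs. naive, 1075 and 2181 for Resist vs. Resist-Mac, 3618 and 5868 in naive vs. Naive-Mac, and 1449 and 4509 in Resist-Mac vs. Naive-Mac. With the length and GC correction limma called 879, 3561 and 2560 genes in the last 3 and 2376 in place of 4015 in the change of the changes. The cause of these shifts was not tested beyond the correction itself.

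Directions turned for Itgb1 in Resist vs. Resist-Mac (0.0003 with median-ratio scaling, 0.38 with quantile normalization, 0.0044 with the length and GC correction and -0.0174 to 0.0112 when a library was left out), for Itgb6 in Resist-Mac vs. Naive-Mac (-0.38 with quantile normalization, -0.29 with the length and GC correction), and in the change of the changes for Itga3 (0.18 with that correction) and Itgb6 (0.12 and 0.0678 with quantile normalization and that correction).

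The replicate numbers did not pair the libraries, since same-numbered naive and Resist libraries deviated from their group means with correlations of -0.160 to -0.028. In Resist vs. Resist-Mac these were -0.269 to 0.356 (2 of 5 pairs over 0.1), in naive vs. Naive-Mac -0.161 to 0.226 (1 of 5) and in Resist-Mac vs. Naive-Mac -0.376 to 0.323 (3 of 5), so in no comparison was every pair over 0.1. A replicate block changed no call of a subunit by limma. A sign-flip test of 5 pairs cannot go below 0.0625, so under this block the passing ratios kept their size with an adjusted p of 0.109. These were 1.16, 1.02, 2.07 and 1.11 for Itga5 to Itgb1, Itgav, Itga6 and Itga2, -1.06 for Itga6 to Itgb4 and 3.85 points for the Itga5 share in Resist vs. naive, -0.85, -1.10 and 2.48 for Itga5 to Itgav, Itga5 to Itga6 and Itga6 to Itgb4 in naive vs. Naive-Mac, and 2.06 for Itga5 to Itga2 in Resist-Mac vs. Naive-Mac.

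Among the ratios in Resist vs. naive, Itga5 to Itga2 was 0.75 with a pseudocount of 0.1, and the Itga5 share rose by 3.41 points with quantile normalization, neither passing. In Resist vs. Resist-Mac, Itga5 to Itga6 was -0.05 (-0.0488 with quantile normalization, -0.0523 with the length and GC correction) and Itga5 to Itga2 was -0.97 with a pseudocount of 0.1. In naive vs. Naive-Mac, Itga5 to Itgb1 was -0.66 with quantile normalization and -0.29 with the length and GC correction, which left Itga5 to Itgav at -0.64 without passing and Itga5 to Itga2 at 1.33, passing. Itga5 to Itga3 there was 0.24 with a pseudocount of 0.1, 0.009 with median-ratio scaling, -0.90 and passing with quantile normalization, and 0.12 with the length and GC correction. Itga5 to Itga6 was -0.88 with a pseudocount of 0.1, no longer passing, and the Itga5 share was -3.82 points and passing with quantile normalization. In Resist-Mac vs. Naive-Mac, Itga5 to Itgb1 was 1.51 and passing with a pseudocount of 0.1, Itga5 to Itga3 was -0.28 with quantile normalization, and Itga6 to Itgb4 was -0.04 (-0.0366) with a pseudocount of 0.1 and 1.53, passing, with the length and GC correction.

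When libraries were left out singly, the ratios in Resist vs. naive ranged over 1.04 to 1.30 (Itga5 to Itgb1), 0.91 to 1.13 (Itgav), 1.94 to 2.25 (Itga6), 0.96 to 1.29 (Itga2), -1.23 to -0.93 (Itga6 to Itgb4) and 3.24 to 4.66 points (share), with adjusted p up to 0.0606. The calls were lost without naive replicate 1, 2 or 5 for all 6 and also without naive replicate 3 for Itga5 to Itgb1, Itga5 to Itga2, Itga6 to Itgb4 and the share. In Resist vs. Resist-Mac the ranges were -0.35 to 0.0944 (Itga5 to Itga3), -0.32 to 0.19 (Itga6), -0.0263 to 0.33 (Itga2) and -2.65 to 0.13 points (share). In naive vs. Naive-Mac they were 0.25 to 0.71 (Itgb1), -0.95 to -0.56 (Itgav), -0.20 to 0.12 (Itga3), -1.22 to -0.80 (Itga6), 0.85 to 1.41 (Itga2), 2.29 to 2.66 (Itga6 to Itgb4) and -1.80 to 0.46 points (share), where the calls of Itgav, Itga6 and Itga6 to Itgb4 were lost without naive replicate 1, 2 or 5 and those of Itgb1 and Itga2 gained without Naive-Mac replicate 2. In Resist-Mac vs. Naive-Mac, Itga5 to Itgb1 ranged over 0.96 to 1.41.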
